A study of Rattus norvegicus with 18 samples.

Results

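The genes Hp, Fetub, Kng2 and Pigr, which encode 4 secreted or shed proteins, were followed through a cigarette smoke study of rat lung. They are 4 of 4616 named genes on the arrays and fill 8 of 11994 rows of the value table. All 4 were chosen by their difference between smoke doses in these same data, so that difference, and their ratios at each dose, are given below as descriptions without a test. The time since exposure and the length of exposure were not the basis of the choice and were tested. These tests use the same samples, and the genes were chosen with earlier results of these data known. The time tests are therefore not fully independent of the choice.

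Whole lung RNA was read on 2-colour PIQOR microarrays, and each value is the log2 of the smoke signal over the air signal, so 1.00 means a doubled signal and 0 means no difference from air. High-dose rats inhaled cigarette smoke at 600 µg total particulate matter per litre, low-dose rats inhaled it at 300 µg per litre, and control rats breathed conditioned fresh air, all by nose only. Exposure ran for 2, 7 or 13 weeks, and the lungs were frozen once 2, 6 or 20 hours had passed since the final session. The strain, sex and age of the rats were not given in the sources used here, and no genetic change is named. Each of the 18 samples was a pool of 4 exposed rats set against a pool of 4 air rats, so no condition had a replicate and variation between animals was not seen. At each combination of weeks and hours both doses were set against the same control pool, which left 9 control pools and 9 pairs of doses. Errors are standard errors (SE) from limma across the 9 combinations, and they mix pool error with real change over time. In whole lung, a higher ratio from more cells of a type cannot be told apart from more RNA per cell.

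Haptoglobin (Hp) is a plasma glycoprotein that binds free haemoglobin and so limits iron-driven oxidative damage. Fetub encodes fetuin-B, a member of the cystatin superfamily known in mouse and human as an inhibitor of astacin-type metalloproteases. Kng2 encodes a kininogen, a plasma protein that carries cystatin domains against cysteine proteases and releases a kinin peptide, and rat T-kininogens are strong acute phase reactants. Pigr encodes the polymeric immunoglobulin receptor, an epithelial membrane protein that carries dimeric IgA to the mucosal surface, where its outer part is cut off as secretory component. The first 3 are thus secreted as such, whereas Pigr is shed. Liver makes most of the Hp and kininogen in plasma, and haptoglobin is also made in the lung.

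Promoter sequences from RefSeq on build GRCr8 were matched by symbol for 2 of the 4 genes, Kng2 and Pigr, and are shown because these genes were raised in the same samples. Each stretch holds 250 bases before and 50 after the annotated start, in 300 bases read 5′ to 3′. Kng1, the kininogen gene next to Kng2, is shown because part of its stretch is nearly identical to part of the Kng2 stretch. Capitals mark motif matches.
Kng2, chr11:91418220-91418519, plus strand: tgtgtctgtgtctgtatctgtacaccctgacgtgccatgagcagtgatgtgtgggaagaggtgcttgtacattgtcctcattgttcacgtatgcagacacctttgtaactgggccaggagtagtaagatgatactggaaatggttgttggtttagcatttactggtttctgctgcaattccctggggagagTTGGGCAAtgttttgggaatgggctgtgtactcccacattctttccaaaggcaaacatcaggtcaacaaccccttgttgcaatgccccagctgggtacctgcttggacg
Kng1, chr11:91340099-91340398, minus strand: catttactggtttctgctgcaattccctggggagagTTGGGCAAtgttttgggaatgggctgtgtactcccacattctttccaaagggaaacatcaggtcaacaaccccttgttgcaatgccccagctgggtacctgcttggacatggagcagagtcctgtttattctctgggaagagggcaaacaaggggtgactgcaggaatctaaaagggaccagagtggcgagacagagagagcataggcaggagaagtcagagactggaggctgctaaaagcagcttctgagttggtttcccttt
Pigr, chr13:44850932-44851231, plus strand: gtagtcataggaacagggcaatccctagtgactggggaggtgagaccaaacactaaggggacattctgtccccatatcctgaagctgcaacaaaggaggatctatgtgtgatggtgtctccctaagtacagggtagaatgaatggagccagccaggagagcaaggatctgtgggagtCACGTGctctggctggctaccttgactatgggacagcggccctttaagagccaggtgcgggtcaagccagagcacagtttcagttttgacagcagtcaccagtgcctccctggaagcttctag

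The motifs searched on both strands were TTCNNNGAA for STAT factors, TTGCNNAA for C/EBP factors, CACGTG for the E-box, GCGTG for the aryl hydrocarbon receptor core, TGACNNNGC for the antioxidant response element, and the kappa B motif. The Kng2 and Kng1 stretches each held 1 C/EBP match, found on the minus strand and starting at base 192 of Kng2 and base 37 of Kng1, counted from 1 at the 5′ end. Pigr held 1 E-box, starting at base 178. No other match lay in these windows, and no matches overlapped. Among all 33469 promoters of this length, 10.6% hold the C/EBP letters, 6.4% the E-box, 8.9% the STAT letters, 7.5% the kappa B motif, 29.7% the receptor core and 12.1% the antioxidant element.

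Lined up, the Kng2 and Kng1 stretches overlapped over 145 bases and were identical at 143 of them (98.6%), with a longest shared run of 87 bases. Their C/EBP matches fall on the same aligned bases and so are not independent of each other. The match lies at -59 from the annotated start of Kng2 and at -214 from that of Kng1. Kng1 and a further kininogen, Kng2l1, flank Kng2 on chromosome 11, and neither was measured here under its own name. The probe is annotated to Kng2 alone. Its sequence was not used here, so signal from the other kininogen genes may be included in every Kng2 value below.

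Hp was above air in all high-dose samples and in 8 of 9 low-dose samples. After 2 weeks its log2 ratio at 2, 6 and 20 hours was 0.74, 0.77 and 0.79 at the high dose, against 0.38, 0.36 and -0.15 at the low dose. After 7 weeks it was 0.82, 1.01 and 1.15 at the high dose, against 0.16, 0.56 and 0.77 at the low dose. After 13 weeks it was 0.58, 0.95 and 0.90 at the high dose, against 0.15, 0.19 and 0.38 at the low dose. The high-dose sample was the higher of every pair, and the 9 high-dose values were the most tightly grouped of the 4 genes (SD 0.17 at the high dose, 0.27 at the low dose). High-dose values ran from 0.58 through a median of 0.82 to 1.15, and low-dose values from -0.15 through 0.36 to 0.77. The groups overlapped through the low-dose sample of 7 weeks and 20 hours alone, since 8 of 9 low-dose samples lay below every high-dose sample. On average Hp stood at 0.86 ± 0.06 at the high dose (SE, n = 9, 1.81-fold) and 0.31 ± 0.08 at the low dose (n = 9, 1.24-fold). The mean low-dose log2 ratio of Hp was 36.3% of the high-dose one, the smallest share of the 4 genes.

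Fetub had the highest mean of the 4 genes at either dose and was above air in all 18 samples. After 2 weeks its log2 ratio at 2, 6 and 20 hours was 0.86, 1.37 and 0.71 at the high dose, against 0.56, 0.51 and 0.40 at the low dose. After 7 weeks it was 1.62, 1.51 and 1.15 at the high dose, against 0.84, 0.62 and 0.55 at the low dose. After 13 weeks it was 1.33, 0.79 and 1.04 at the high dose, against 0.98, 0.50 and 0.08 at the low dose. The low-dose value was lowest at 20 hours within each of the 3 exposure lengths, while at the high dose the lowest value came at 20 hours after 2 and 7 weeks and at 6 hours after 13 weeks. High-dose values ran from 0.71 through a median of 1.15 to 1.62, and low-dose values from 0.08 through 0.55 to 0.98. These ranges overlapped, with 6 high-dose samples above every low-dose sample. The means were 1.15 ± 0.09 at the high dose (n = 9, 2.22-fold) and 0.56 ± 0.08 at the low dose (n = 9, 1.47-fold).

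Kng2 was above air in all high-dose samples and in 8 of 9 low-dose samples. After 2 weeks its log2 ratio at 2, 6 and 20 hours was 0.92, 1.35 and 1.06 at the high dose, against 0.41, 0.24 and 0.06 at the low dose. After 7 weeks it was 0.72, 1.49 and 1.06 at the high dose, against -0.18, 0.82 and 0.78 at the low dose. After 13 weeks it was 1.18, 1.12 and 0.62 at the high dose, against 0.71, 1.05 and 0.54 at the low dose. The doses were far apart in the 2 week samples and close in the 13 week samples taken at 6 and 20 hours, where the differences were 0.07 and 0.08. High-dose values ran from 0.62 through a median of 1.06 to 1.49, and low-dose values from -0.18 through 0.54 to 1.05, and the ranges overlapped. The high-dose value at 7 weeks and 2 hours, 0.72, was present in only 1 of the 2 table rows of the gene. Kng2 averaged 1.06 ± 0.08 at the high dose (n = 9, 2.08-fold) and 0.49 ± 0.11 at the low dose (n = 9, 1.41-fold).

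Pigr was above air in all high-dose samples and in 7 of 9 low-dose samples. After 2 weeks its log2 ratio at 2, 6 and 20 hours was 0.77, 0.99 and 0.64 at the high dose, against 0.49, 0.80 and 0.64 at the low dose. After 7 weeks it was 1.05, 1.26 and 0.83 at the high dose, against 0.62, 0.43 and -0.20 at the low dose. After 13 weeks it was 0.61, 1.02 and 0.89 at the high dose, against 0.42, 0.37 and -0.18 at the low dose. The pair at 2 weeks and 20 hours was equal, which makes Pigr the only gene of the 4 whose high-dose sample was not the higher in every pair. Both low-dose values below air came at 20 hours, after 7 and 13 weeks. High-dose values ran from 0.61 through a median of 0.89 to 1.26, and low-dose values from -0.20 through 0.43 to 0.80, and the ranges overlapped. Pigr averaged 0.90 ± 0.07 at the high dose (n = 9, 1.86-fold) and 0.38 ± 0.10 at the low dose (n = 9, 1.30-fold). Without the 2 week samples the low-dose mean was 0.24.

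**Figure D1:**
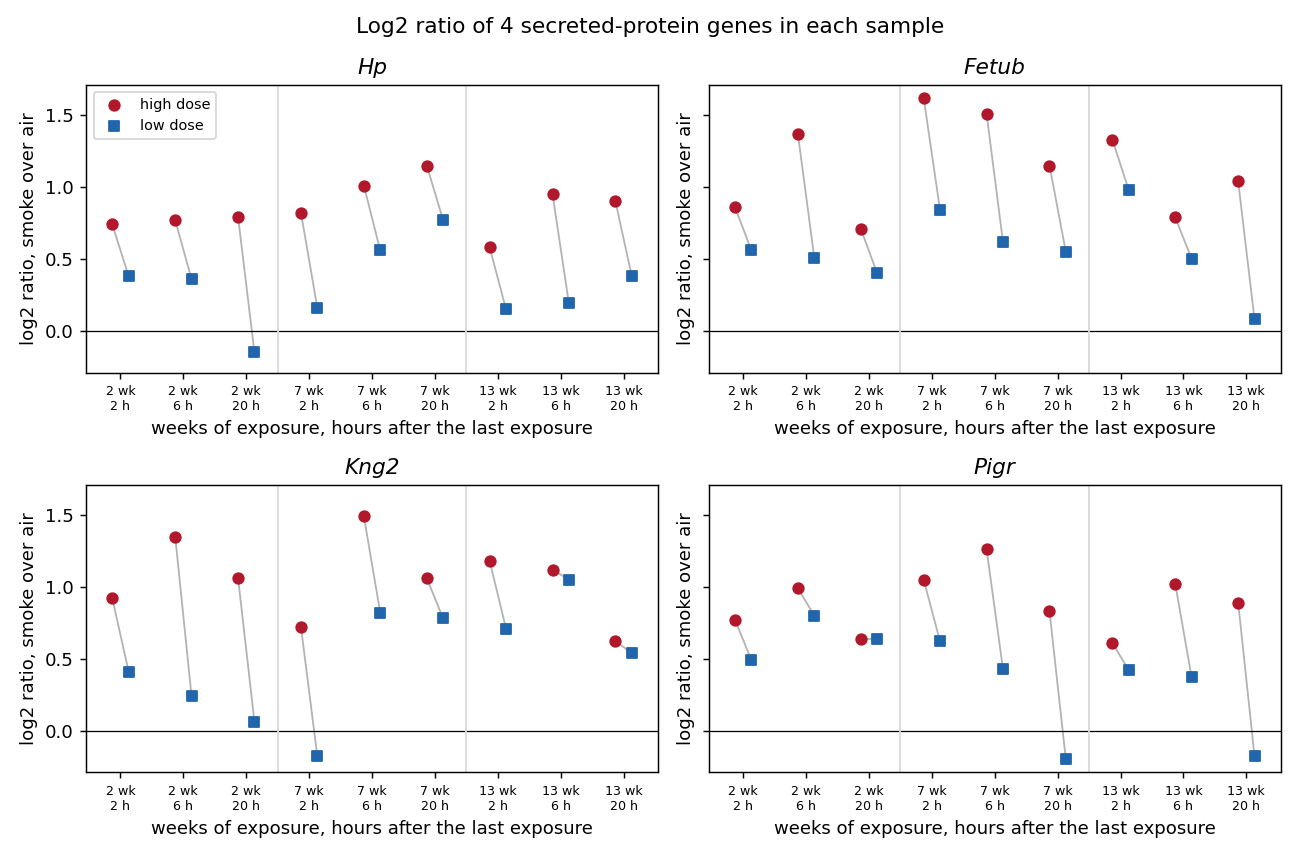
Log2 ratio of smoke over air for Hp, Fetub, Kng2 and Pigr in each of the 18 samples, by weeks of exposure and hours after the last exposure, with a grey line joining the high-dose (circles) and low-dose (squares) sample that share a control pool. All 36 high-dose values lie above 0, and the 4 low-dose values below 0 are Hp at 2 weeks and 20 hours, Kng2 at 7 weeks and 2 hours, and Pigr at 7 and 13 weeks and 20 hours.

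Across the 4 genes, 36 of 36 high-dose values and 32 of 36 low-dose values lay above air. Over all 4016 genes tested by limma against air, 17.2% were called at the high dose and 4.96% at the low dose at an adjusted p under 0.05, with 9.56% called higher at the high dose and 3.51% at the low dose. All 4 genes were among those called higher at each dose, a fact from which nothing is read, since the choice of genes used these ratios. Smoke RNA carried Cy5 in all samples, so a constant dye effect would be part of every value against air. It would cancel, as does the control pool, in the difference between doses. Cyp1a1, the P450 enzyme that marks exposure to smoke hydrocarbons, stood at 3.14 ± 0.67 at the high dose and 3.17 ± 0.68 at the low dose (n = 9 each). Its difference between doses was -0.02 ± 0.08. These means cover a wide spread, from -1.09 to 6.37 at the high dose and from -1.36 to 6.31 at the low dose. Cyp1a1 changed with the hours after exposure (adjusted p = 4.99e-06 by limma F test).

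The mean of the 4 genes was taken in each sample to order the samples. The 9 high-dose samples took the first 9 places, from 1.32 at 7 weeks and 6 hours down to 0.80 at 2 weeks and 20 hours. The 9 low-dose samples followed, from 0.61 at 7 weeks and 6 hours down to 0.21 at 13 weeks and 20 hours. The sample of 7 weeks and 6 hours was the highest of each dose, but these 2 samples share a control pool and are not independent. The neighbouring high-dose and low-dose samples in this order were 0.80 and 0.61. The genes were chosen by their difference between the doses, so the separation of the doses in this order carries no further weight.

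The difference between the doses, high minus low within a pair, was similar in size for the 4 genes. It averaged 0.59 ± 0.09 for Fetub (SE, n = 9 pairs), 0.57 ± 0.11 for Kng2, 0.55 ± 0.07 for Hp and 0.52 ± 0.11 for Pigr, steps of 1.43-fold to 1.51-fold. These mean differences lie within an SE of each other, so no order among the 4 genes can be read. By size of this mean they held places 5, 7, 10 and 13 among 4016 genes. Of these genes 0.174% were called in this comparison and 0.149% were called higher, among them Hp, Fetub and Kng2 but not Pigr. This comparison chose the genes, so the calls carry no further weight.

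**Figure D2:**
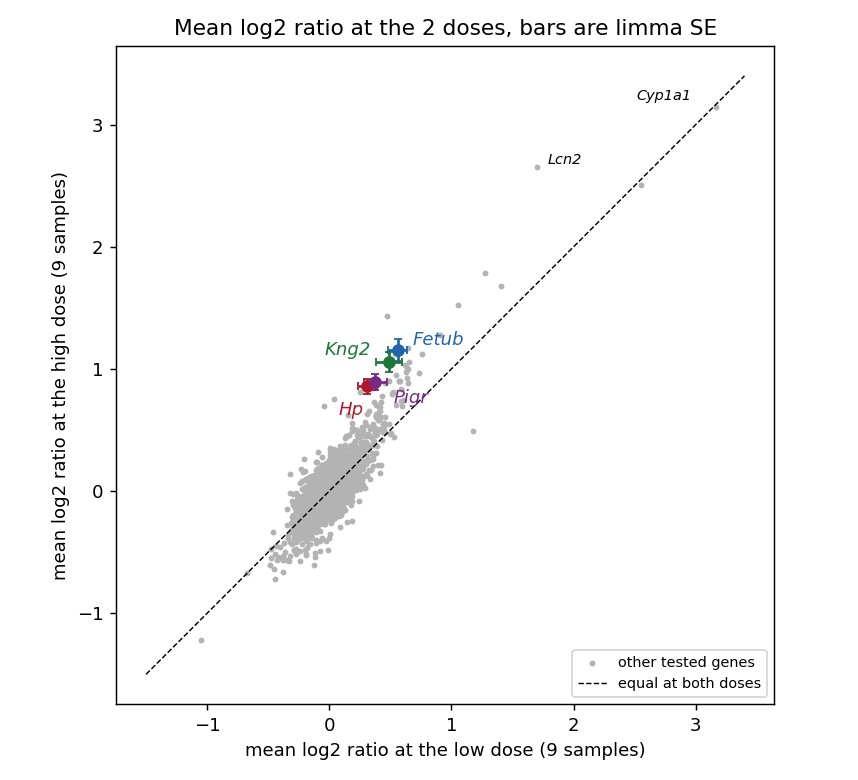
Mean log2 ratio of each tested gene at the high dose (vertical axis) against the low dose (horizontal axis), 9 samples each, with SE bars for Hp, Fetub, Kng2 and Pigr. The 4 genes lie above the dashed line of equal response, by 0.52 to 0.59, and Cyp1a1 lies on it.

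The size of the dose step varied among the pairs in a different way for each gene. For Hp it ran from 0.36 to 0.94, with the widest pair at 2 weeks and 20 hours. For Fetub it ran from 0.29 to 0.96, with the widest at 13 weeks and 20 hours. Kng2 ran from 0.07 to 1.11, and the mean over its pairs was 0.87 after 2 weeks, 0.62 after 7 weeks and 0.21 after 13 weeks. Pigr ran from 0 to 1.07, and the mean over its pairs was 0.16 after 2 weeks, 0.76 after 7 weeks and 0.64 after 13 weeks. The narrowing for Kng2 lay mostly on the low-dose side. Its low-dose mean was 0.24, 0.47 and 0.77 after 2, 7 and 13 weeks, where its high-dose mean was 1.11, 1.09 and 0.97. The widening for Pigr also lay mostly on the low-dose side, with low-dose means of 0.64, 0.28 and 0.20, where its high-dose means were 0.80, 1.05 and 0.84. Each such mean rests on 3 pairs of pools. Whether the dose step depends on time was not tested for these genes, since the step itself was the basis of their choice.

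**Figure D3:**
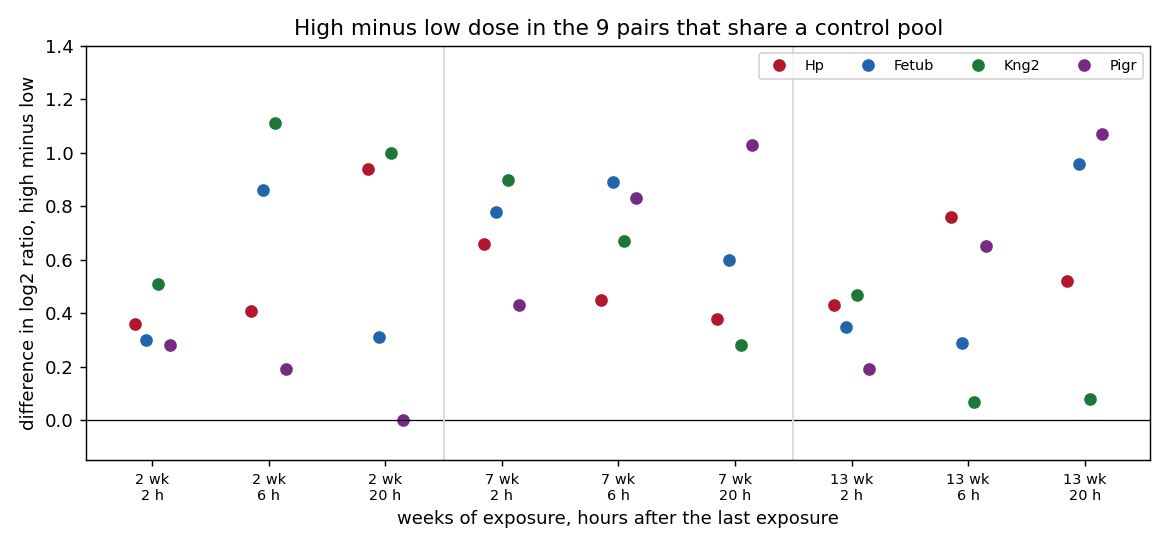
Difference in log2 ratio between the high-dose and low-dose sample of each pair, for Hp, Fetub, Kng2 and Pigr, by weeks of exposure and hours after the last exposure. Of the 36 differences 35 are above 0 and 1, that of Pigr at 2 weeks and 20 hours, is 0, and the 13 week values of Kng2 at 6 and 20 hours are the next lowest.

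Time was tested on the average of the high-dose and low-dose ratio of each pair, which gives 9 values per gene. Neither the hours after exposure nor the weeks of exposure gave a call for any of the 4 genes. By limma F tests 0 of 4 passed over hours, against 1.6% of 3994 genes, and 0 of 4 passed over weeks, against 0.125%. At an unadjusted p under 0.05 the counts were 2 of 4 over hours (Fetub and Pigr), where 641 of all 3994 genes lay under it, and 0 of 4 over weeks, where 231 did. An exact permutation of hours within weeks, or of weeks within hours, gave 0 of 4 on each side. Its smallest possible p is 0.0278, and the smallest found was 0.0833, for Pigr over hours. With 9 values per gene, a change of the size of the differences below could go without a call.

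Fetub averaged 1.03, 0.88 and 0.66 at 2, 6 and 20 hours (adjusted p = 0.28 by limma). Its difference of 20 minus 2 hours was -0.38 ± 0.13 (SE, adjusted p = 0.252). Pigr averaged 0.66, 0.81 and 0.44 at 2, 6 and 20 hours (adjusted p = 0.222), and its difference of 20 minus 6 hours was -0.38 ± 0.11 (adjusted p = 0.181). For Pigr the 3 values at 6 hours, from 0.70 to 0.90, lay above the 3 values at 20 hours, from 0.32 to 0.64. Kng2 also had its highest mean at 6 hours, with 0.63, 1.01 and 0.69 at 2, 6 and 20 hours (adjusted p = 0.37). Hp averaged 0.47, 0.64 and 0.64 at those hours (adjusted p = 0.645), with the 3 values at 20 hours spread from 0.32 to 0.96. None of these orders was past the threshold.

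Over weeks of exposure, Fetub averaged 0.74, 1.05 and 0.79 after 2, 7 and 13 weeks (adjusted p = 0.862) and Hp averaged 0.48, 0.75 and 0.53 (adjusted p = 0.929). Both had their highest mean after 7 weeks, by 0.31 ± 0.13 for Fetub and 0.26 ± 0.13 for Hp over 2 weeks (adjusted p = 0.588 and 0.702). Kng2 averaged 0.67, 0.78 and 0.87 (adjusted p = 0.942) and Pigr 0.72, 0.67 and 0.52 (adjusted p = 0.929). The high-dose ratios of all 4 genes were above air from the first exposure length measured, and no rise or fall over the later weeks passed the test. Only 5 genes were called over weeks in all, Lcn2, Lgals3, Pf4, S100a8 and S100a9, named here after their values were seen.

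**Figure D4:**
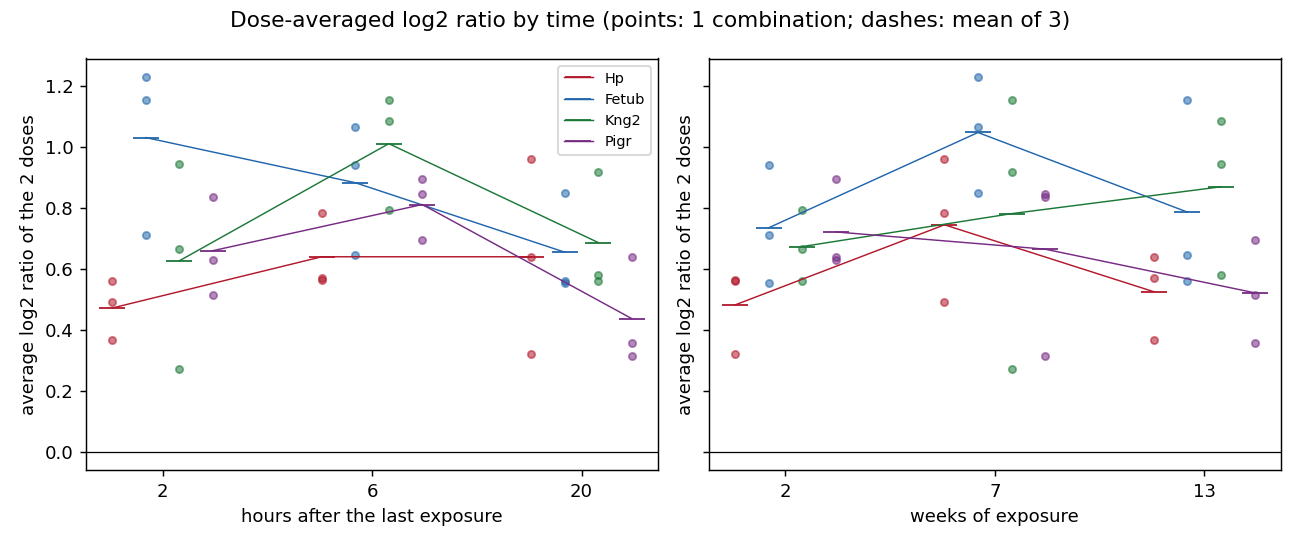
Average log2 ratio of the high-dose and low-dose sample for Hp, Fetub, Kng2 and Pigr, by hours after the last exposure (left) and weeks of exposure (right). Points are single combinations and dashes are means of 3, which at 2, 6 and 20 hours run 1.03, 0.88 and 0.66 for Fetub and 0.66, 0.81 and 0.44 for Pigr.

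The 4 genes were all positively correlated over the 18 samples, but not within each dose. Over the 18 samples, which differ in dose and share control pools in pairs, Pearson's r between them ranged from 0.30 (Kng2 and Pigr) to 0.72 (Fetub and Pigr), with 0.68 for Hp and Kng2. Within the 9 high-dose samples r ranged from -0.01 (Hp and Fetub) to 0.52 (Hp and Pigr). Within the 9 low-dose samples it ranged from -0.58 (Hp and Pigr) to 0.47 (Hp and Kng2). Over the 9 dose differences Kng2 and Pigr had r = -0.69. Of the 6 pairs of genes, Fetub and Pigr alone kept a positive r above 0.4 in each view, with 0.51 in the high-dose samples, 0.42 in the low-dose samples, 0.51 for the differences and 0.41 for the dose averages. The r over 18 samples takes in the difference between doses by which the genes were chosen, so its positive sign carries no further weight. Correlations on 9 or 18 such values are descriptions and have no p here.

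Other genes with a profile like that of each member were ranked by r over the 18 samples, among 3560 genes with a value in every sample. This r takes in the difference between doses that chose the members. It therefore favours genes that also differ between doses, and shared control was not tested. For Fetub the 5 nearest outside the 4 genes were C4bpa, which encodes a complement inhibitor (r = 0.84), Shox2 (0.83), the chemokine Ccl9 (0.81), Sdc1 for the epithelial proteoglycan syndecan-1 (0.81) and Zfyve27 (0.81). C4bpa also came close to Fetub in size, at 1.12 ± 0.09 at the high dose and 0.54 ± 0.09 at the low dose. For Pigr they were the vesicle membrane protein gene Scamp1 (0.85), Yipf6 (0.82), Oxsr1 (0.79), the desaturase Scd2 (0.77) and Rad23b (0.77). For Kng2 they were Ubxn4 (0.79), the mitochondrial thiolase Acat1 (0.78), the epithelial adhesion molecule Epcam (0.78), the stress gene Gadd45a (0.73) and Fam118a (0.72). For Hp they were the cation channel Trpv2 (0.69), the mevalonate enzyme Mvd (0.67), complement C1s (0.66), the glycerol kinase Gk (0.65) and Clxn (0.65). The 4 lists share no gene. Among these genes Trpv2 (0.81), C4bpa and Ccl9 (1.06) had a mean above 0.8 at the high dose, and the others lay between -0.03 and 0.33.

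The measured neighbours of these genes on the chromosome had means between -0.16 and 0.24. Ahsg, which encodes fetuin-A and lies next to Fetub on chromosome 11, stood at 0.03 ± 0.05 at the high dose and -0.01 ± 0.07 at the low dose (n = 9 each, adjusted p = 0.709 at the high dose and 0.981 at the low dose). Dnajb11, the next gene, stood at 0.08 ± 0.06 at the high dose and 0.01 ± 0.05 at the low dose. Eif4a2, on the far side of Kng1 from Kng2, stood at -0.14 ± 0.07 at the high dose and -0.16 ± 0.08 at the low dose. Dhodh, beside Hp on chromosome 19, stood at -0.08 ± 0.05 at the high dose and -0.14 ± 0.06 at the low dose. Il24, a cytokine gene near Pigr on chromosome 13, was the only one of these 5 neighbours past the threshold, and only for the high dose. Its high-dose mean was 0.24 ± 0.07 (adjusted p = 0.0229) and its low-dose mean was 0.07 ± 0.07 (adjusted p = 0.639). The dose difference of Il24, 0.17 ± 0.07, did not pass (adjusted p = 0.383 by limma). Among all 4016 genes 17.2% were called against air at the high dose, so nothing about the neighbours is read from this single call. Fetub and Kng2 themselves lie in the same stretch of chromosome 11, in the cluster of fetuin, histidine-rich glycoprotein and kininogen genes.

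Of 14 further tested genes of acute phase and liver-type plasma proteins, 3 rose and 2 fell at the high dose, and 3 rose and 0 fell at the low dose. Over all 4016 genes 691 were called at the high dose and 199 at the low dose. The rises were Lcn2, which encodes a siderophore-binding protein (2.65 ± 0.16 at the high dose, 1.70 ± 0.11 at the low dose), the metallothionein Mt1 (0.89 ± 0.08 high, 0.65 ± 0.10 low) and the endotoxin co-receptor Cd14 (0.63 ± 0.08 high, 0.38 ± 0.07 low). The falls were Vtn for vitronectin (-0.24 ± 0.07, adjusted p = 0.0245) and the protease inhibitor A2m (-0.19 ± 0.05, adjusted p = 0.0257), both at the high dose. Neither passed between the doses (adjusted p = 0.407 for Vtn and 0.527 for A2m). The median log2 ratio of the 14 was 0.09 at the high dose and 0.01 at the low dose, beside 0.003 at the high dose and -0.002 at the low dose over all 4016 genes. Their mean per sample, which Lcn2 enters, ran from 0.22 to 0.50 over high-dose samples and from 0.07 to 0.30 over low-dose samples, higher at the high dose in 9 of 9 pairs. Of 6 liver parenchyma markers, among them Alb and Apob, 0 passed in either direction at either dose. At an unadjusted limma p under 0.05 the counts were 2 at the high dose and 0 at the low dose. Over all 4016 genes 1245 lay under it at the high dose and 770 at the low dose. Tf stood at 0.22 ± 0.10 and Serpinc1 at 0.13 ± 0.06 at the high dose. The mean of these 6 markers ran from -0.09 to 0.30 over high-dose samples and from -0.16 to 0.16 over low-dose samples.

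Genes of the systems in which the 4 proteins act gave mixed counts. Over all 4016 genes, 384 rose and 307 fell at the high dose, and 141 rose and 58 fell at the low dose. Of 6 further kinin system genes, Anpep, an aminopeptidase, rose at the high dose (0.20 ± 0.06, adjusted p = 0.0371). Xpnpep2, a kinin-cleaving aminopeptidase, fell there (-0.18 ± 0.05, adjusted p = 0.0275). At the low dose 0 of the 6 passed, and 3 lay under an unadjusted p of 0.05, where 770 of all 4016 genes did. Low-dose means were close to these, at 0.22 ± 0.07 for Anpep and -0.17 ± 0.06 for Xpnpep2. The differences of these 2 genes between doses did not pass (adjusted p = 0.948 for Anpep and 0.987 for Xpnpep2). The angiotensin and kinin convertase Ace stood at 0.01 at the high dose and 0.21 at the low dose and did not pass (adjusted p = 0.908 at the high dose and 0.0872 at the low dose). Of 6 further fetuin, cystatin and cysteine protease genes, 5 rose at the high dose and 3 at the low dose, with a median of 0.44 at the high dose and 0.25 at the low dose. Among them were the cathepsins Ctss (0.73 ± 0.08 at the high dose, 0.42 ± 0.07 at the low dose) and Ctsb (0.61 ± 0.06 high, 0.38 ± 0.08 low) and the inhibitor Cstb (0.46 ± 0.07 high, 0.28 ± 0.07 low), which passed at both doses. Ctsh stood at 0.41 ± 0.09 at the high dose, where it passed, and 0.21 ± 0.07 at the low dose (adjusted p = 0.106). Ctsc stood at 0.32 ± 0.07 at the high dose, where it passed, and 0.09 ± 0.07 at the low dose (adjusted p = 0.486). Their differences between doses did not pass (adjusted p = 0.498 for Ctsh and 0.199 for Ctsc). Of 7 further genes of haemoglobin, haem and iron clearance, 3 rose at each dose, Hmox1 (0.73 ± 0.16 high, 0.36 ± 0.09 low) and the ferritin chains Ftl1 (0.70 ± 0.10 high, 0.60 ± 0.10 low) and Fth1 (0.36 ± 0.07 high, 0.32 ± 0.07 low). The ferritin ratios were close at the 2 doses, with differences of 0.10 ± 0.09 for Ftl1 and 0.04 ± 0.07 for Fth1 (adjusted p = 0.787 for Ftl1 and 0.919 for Fth1). Hbb, the haemoglobin beta chain, stood at -0.14 at the high dose and 0.10 at the low dose (adjusted p = 0.378 high, 0.645 low).

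Around Pigr, 2 of 6 further immunoglobulin transport and B lineage genes rose and 2 fell at the high dose, and 2 rose at the low dose. The counts over all 4016 genes were 384 up and 307 down at the high dose, and 141 up and 58 down at the low dose. The IgA-promoting cytokine Tnfsf13 (APRIL) rose at both (0.80 ± 0.07 at the high dose, 0.51 ± 0.08 at the low dose), as did the class II chain Cd74 (0.31 ± 0.07 high, 0.35 ± 0.07 low). The B cell genes Cd79b (-0.61 ± 0.10, adjusted p = 0.00141) and Ms4a1 (-0.49 ± 0.11, adjusted p = 0.00577) fell at the high dose. They stood at -0.12 and -0.08 at the low dose without passing. Their differences between doses did not pass either (adjusted p = 0.0889 for Cd79b and 0.166 for Ms4a1). Of 17 genes of IL-6 family, C/EBP and NF-kB signalling, 3 rose at the high dose, Nfkbiz (0.55 ± 0.07), Il1b (0.47 ± 0.12) and the gp130 receptor chain Il6st (0.24 ± 0.07). At the low dose 2 rose, Nfkbiz (0.36 ± 0.08) and Il1b (0.39 ± 0.10). Il6st stood at 0.20 ± 0.06 at the low dose without passing (adjusted p = 0.0979). The difference of Il6st between doses was 0.04 ± 0.07 (adjusted p = 0.918 by limma). Stat3 (0.14), Socs3 (0.09) and Cebpb (0.18) did not pass at the high dose (adjusted p = 0.422, 0.412 and 0.125). These lists were chosen with earlier results of these data known.

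Markers of other cell types were taken beside the 4 genes, and their part in the results above was not tested. In the macrophage, neutrophil, airway, alveolar and liver lists 0 of 32 markers were called between the doses by limma, against 7 of all 4016 genes. With so few calls over all genes, the 0 does not show that these markers were equal between the doses. Of the 32, 15 lay under an unadjusted p of 0.05, against 398 of all 4016 genes. Against air, 384 of all 4016 genes rose and 307 fell at the high dose, and 141 rose and 58 fell at the low dose. Of 7 macrophage markers 5 rose and 2 fell at the high dose, and 4 rose and 1 fell at the low dose. Lgals3 led them (1.28 ± 0.10 at the high dose, 0.91 ± 0.10 at the low dose), and the falls were Adgre1 at both doses and Csf1r at the high dose. The mean of the 7 ran from 0.21 to 0.73 over high-dose samples and from 0.13 to 0.50 over low-dose samples, higher at the high dose in 9 of 9 pairs. Of 6 neutrophil markers 2 rose and 2 fell at the high dose and 1 rose at the low dose. Their mean ran widely, from -0.87 to 1.19 at the high dose and from -0.68 to 0.62 at the low dose, higher at the high dose in 5 of 9 pairs. Among 6 airway epithelial markers only Foxj1, the regulator of motile cilia, rose (0.52 ± 0.11 at the high dose), and 0 passed at the low dose. The airway mean ran from -0.05 to 0.25 at the high dose and from -0.11 to 0.08 at the low dose, higher at the high dose in 8 of 9 pairs. Of 7 alveolar markers 3 rose and 1 fell at the high dose and 3 rose at the low dose. Their mean ran from -0.19 to 0.28 at the high dose and from -0.08 to 0.19 at the low dose, higher at the high dose in 5 of 9 pairs. The deposited values are ratios, so they do not show which of these markers were near background or which cells carried the 4 genes.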

How the data were processed

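The authors deposited 1 table of log2 ratios for 18 samples, smoke-exposed lung (Cy5) over air lung (Cy3) per the labels, from pooled, amplified RNA divided over 2 arrays. How the arrays were scanned, filtered and normalized was not given in the sources used here. Direction comes from the channel labels, and the log base from the 257 values under -1, of which 100% fit ratios kept to 2 decimals. Signal over background is unknown, and the number of arrays limits precision.

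Repeated probes were merged and probes of a gene averaged, giving 4616 genes, of which 3919 to 4583 were measured per sample. Each of the 4 genes has 1 probe in 2 rows. Tests took genes with a complete dose pair at 6 or more of the 9 combinations. R 4.3.3 with limma 3.58.1 was used, with 2-sided tests, Benjamini-Hochberg adjustment over all genes and a threshold of 0.05. Dose means were tested against 0, and hours and weeks by F tests on the 9 dose averages, each with the other as covariate. The script was tested on simulated data. Named genes were the 4 genes, the 5 most alike to each, up to 4 called genes per list and protein-coding neighbours within 2 places. The members, lists and rules were chosen with earlier results of these data known. Alternatives changed centring, probes, the filter, the pool as a block, and the combinations or doses used.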

Additional observations from a re-analysis of the deposited data

How the results depend on the processing

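The control pool as a replicate block, which keeps all 18 samples, called 148 genes over hours, against 64 on dose averages, and none of the 4 genes over hours or weeks. High-dose samples alone gave 33 genes over hours and 2 over weeks, and low-dose samples alone 19 and 1, against 5 over weeks. With only genes measured in all samples, 24 genes differed between doses, against 7. Leaving out each combination in turn gave 4 to 20 genes between the doses, 29 to 70 over hours, 2 to 8 over weeks and 123 to 193 at the low dose, where the main count was 199. Without 13 weeks and 2 hours the low dose gave 123 genes and the doses differed in 20. Between the doses, 4 genes were left without 7 weeks at 2 or at 6 hours, and 11 without 2 weeks at 20 hours. Over hours, 29 were left without 7 weeks at 6 hours and 35 without 7 weeks at 20 hours. Over weeks, 2 were left without 2 weeks at 2 or at 20 hours, 3 without 2 or 7 weeks at 6 hours, and 8 without 13 weeks at 6 hours. The cause of these shifts in counts was not tested. For Hp, Fetub, Kng2 and Pigr no call over hours or weeks was gained under centring, separate probes, complete genes, the block, either dose alone, exact permutation or any left-out combination. Every mean at a dose and every mean difference moved by less than 1 SD under centring. Leaving out a combination, a week or an hour cannot move such a mean by 1 SD of the same values. No stability is therefore read from that limit, and ranges are given instead. Over left-out weeks the mean difference ran from 0.41 to 0.75 for Kng2, from 0.40 to 0.70 for Pigr, from 0.51 to 0.65 for Fetub and from 0.53 to 0.57 for Hp.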

Other observations

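Serpina3n, an acute phase serpin, had the widest spread of the acute phase list. It stood between -0.76 and 2.61 in the high-dose samples (median 0.71, n = 9) and between -0.97 and 0.87 in the low-dose samples (median 0.08, n = 8). Its mean was 0.70 ± 0.25 at the high dose and -0.04 ± 0.18 at the low dose (SE), and neither passed limma (adjusted p = 0.0699 and 0.94). It was higher at the high dose in 6 of 8 pairs.

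The 7 genes called between the doses were Hp, Fetub, Kng2, C4bpa, Lcn2, the superoxide dismutase Sod2 and Edn2, an endothelin. Edn2 was the only one lower at the high dose, at -0.48 ± 0.08, against -0.01 ± 0.08 at the low dose, and it was higher at the high dose in 0 of 9 pairs. These genes were named after their values were seen.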
